A study of Mus musculus with 2 samples.

Results

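The secreted Wnt antagonists are extracellular proteins that keep Wnt ligands from signalling. The 10 genes described here are the secreted frizzled-related proteins Sfrp1, Sfrp2, Sfrp4, Sfrp5 and Frzb (also called Sfrp3), the Dickkopf proteins Dkk1, Dkk2 and Dkk3, the Wnt inhibitory factor Wif1, and sclerostin (Sost). They were chosen by name, with earlier results of these data known. Each was followed through every probe set (a group of short probes against 1 transcript) that the platform annotation gives to that gene alone. This gave 19 probe sets for the 10 genes, of 34945 probe sets with a single gene and 18193 genes in all. The cells were primary osteoblasts from the skull vault (calvaria) of 7-day-old CD1 mice, grown in serum and then starved for 24 h in medium with 0.25% bovine serum albumin. The PP1 culture next received 2 µM PP1, an inhibitor of c-Src and related tyrosine kinases, for 24 h, and the DMSO culture received the vehicle DMSO for 24 h. The question is which transcripts differ with the inhibitor present, and kinase activity was not measured. Each condition is 1 Affymetrix mouse array, and how many animals or cultures gave the RNA of an array is not given in the sources used here. With 1 array per condition no test between the conditions was possible, no p-value is given, and all values describe these 2 arrays.

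Wnt ligands bind frizzled receptors together with the co-receptors LRP5 and LRP6, which stabilises beta-catenin and drives transcription through TCF and LEF factors. In bone this pathway promotes osteoblast formation and bone mass. Its secreted antagonists work at different steps: the frizzled-related proteins carry a frizzled-like cysteine-rich domain and, like Wif1, bind Wnt ligands themselves, whereas Dkk1, Dkk2 and sclerostin bind LRP5 and LRP6. Dkk3 is a divergent Dickkopf protein for which binding to LRP6 is not established.

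The promoters of Sfrp2 and Frzb are shown because these are the 2 genes that were at least 2-fold higher on the PP1 array, and that of Dkk1 because it is the only one listed with TCF/LEF letters. RefSeq promoter entries (build GRCm38.p6) were found for 7 of the 10 genes, namely Sfrp2, Sfrp5, Frzb, Dkk1, Dkk2, Wif1 and Sost. Each sequence is the 250 bases before the annotated start, 5′ to 3′ on the gene's strand, at chr3:83766071-83766320 (plus strand) for Sfrp2, chr2:80447397-80447646 (minus strand) for Frzb and chr19:30549497-30549746 (minus strand) for Dkk1. Capitals mark the letters TATAAA, the TCF/LEF letters CTTTG followed by any pair made of A and T, and the STAT letters TTCNNNGAA, on either strand. None of these overlapped another within the 3 sequences.
Sfrp2: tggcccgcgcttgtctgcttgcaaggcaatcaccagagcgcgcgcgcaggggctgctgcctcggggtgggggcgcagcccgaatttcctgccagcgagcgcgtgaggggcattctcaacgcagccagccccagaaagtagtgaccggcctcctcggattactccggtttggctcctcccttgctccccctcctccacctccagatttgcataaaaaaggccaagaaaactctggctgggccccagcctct
Frzb: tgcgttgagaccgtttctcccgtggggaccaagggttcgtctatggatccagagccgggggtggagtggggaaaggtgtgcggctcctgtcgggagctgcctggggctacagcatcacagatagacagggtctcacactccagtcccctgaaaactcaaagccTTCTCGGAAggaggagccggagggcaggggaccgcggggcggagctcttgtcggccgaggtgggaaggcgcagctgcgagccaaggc
Dkk1: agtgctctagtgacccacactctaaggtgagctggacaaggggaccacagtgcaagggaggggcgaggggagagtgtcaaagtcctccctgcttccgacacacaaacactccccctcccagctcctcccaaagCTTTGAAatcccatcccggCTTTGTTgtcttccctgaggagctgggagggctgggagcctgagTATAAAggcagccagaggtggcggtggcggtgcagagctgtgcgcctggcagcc
The Sfrp2 window held none of these letters, and none of the GC box letters GGGCGG or the TEAD letters CATTCC. The Frzb window held 1 STAT match, from 87 to 79 bases before the start, and 1 GC box. The Dkk1 window held 2 TCF/LEF matches, which begin 117 and 98 bases before the start, and TATAAA from 54 to 49 bases before it. Among 32851 RefSeq promoter windows of this length, 7.02% held the STAT letters, 14.8% the TCF/LEF letters, 12.4% TATAAA, 32.7% the GC box letters and 12.6% the TEAD letters. Of the other 4 windows, those of Dkk2 and Wif1 held TATAAA and the GC box letters, that of Sfrp5 the GC box letters, and that of Sost none of the 5 motifs. These matches describe the letters only, and factor binding was not measured.

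The values are MAS5 signals on a linear scale, and the PP1 array was the dimmer one as deposited. A factor of 1.68 brought it to the 2% trimmed mean of the DMSO array, and PP1 signals below are given after this step. The median signal of both arrays, 31.7, served as the floor to which lower signals were raised, and 12111 genes that passed it on at least 1 array are called measured. Where 1 array was at the floor, the ratio is a bound. Because a common scale is assumed, each direction is relative to the bulk of genes. As deposited, the median log2 ratio of all genes shifted by -0.71, with 50 genes at least 2-fold higher and 2877 at least 2-fold lower, against 360 and 188 after scaling. The only error that can be given is the disagreement between probe sets of a gene, an SD of 0.41 in log2 ratio over 4745 genes, and it leaves out variation between cultures. The osteoblast markers Col1a1 and Col1a2 were bright, with signals of 9931 and 11166 on the PP1 array and 7558 and 7809 on the DMSO array, while of the 6 osteocyte markers Pdpn had 1652 on the PP1 array and 1603 on the DMSO array, and Sost, Dmp1, Mepe, Phex and Fgf23 were below the floor on both. The other measured osteoblast markers were much dimmer than the 2 collagens. Alpl had 242 on the PP1 array and 188 on the DMSO array, and Pth1r had 204 and 240. Sp7 had 53.3 on the PP1 array and 71.6 on the DMSO array, and Ibsp had 37.7 and 159.1. Runx2, Spp1 and Bglap were not analysed here. In such a culture, fewer cells of a type and less RNA per cell cannot be told apart.

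On the PP1 array, Sfrp2 stood well above its DMSO level, Frzb was higher from a dim signal, Dkk3 was moderately higher by both of its probe sets, and the ratio of Sfrp1 depended on the probe set. Wif1 and Sfrp5 were the 2 measured genes with a ratio below 0. Of the 10 genes, 8 were measured, and Dkk1 and Sost were below the floor on both arrays. At least 2-fold higher were 2 of the 8, Sfrp2 and Frzb, beside 2.97% of all measured genes. At least 2-fold lower were 0 of the 8, beside 1.55% of all measured genes. A ratio above 0 was found for 6 of the 8, beside 51% of all measured genes. Because the genes were chosen with earlier results of these data known, these counts are no test of enrichment. The signs of Frzb and Sfrp5 were fixed by the array on which each passed the floor. The median log2 ratio of the 8 was 0.37, and that of all measured genes was 0.01.

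**Figure D1:**
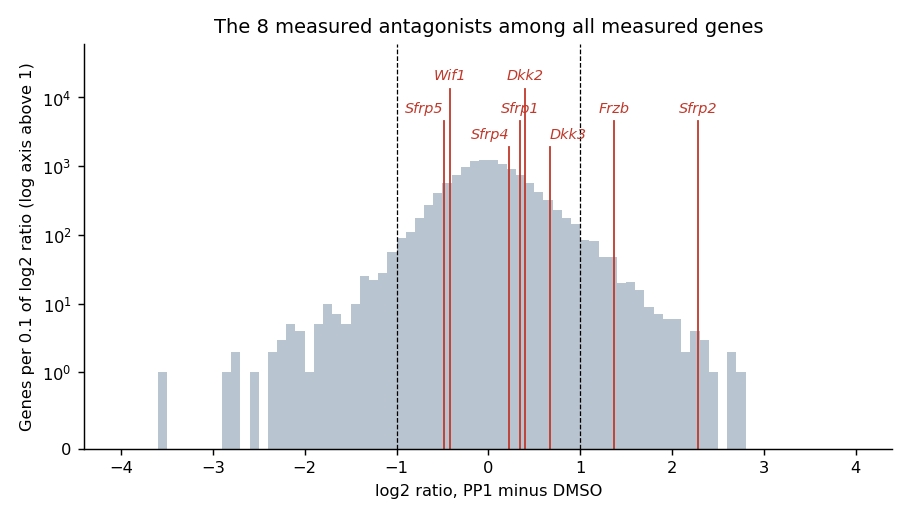
Histogram of the log2 ratio (PP1 minus DMSO, horizontal axis) over the 12111 measured genes, with the number of genes on a vertical axis that is logarithmic above 1; red lines mark the 8 measured antagonists (line height has no meaning) and dashed lines mark 2-fold. Sfrp2 at 2.28 and Frzb at 1.37 lie beyond the upper dashed line, and the other 6 lie between the dashed lines.

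Sfrp2, a frizzled-related protein of mesenchymal cells, had a signal of 2797 on the PP1 array (1665 as deposited), against 574.2 on the DMSO array. The PP1 array was the higher of the pair even without scaling, when the ratio was 2.90-fold. After scaling it was 4.87-fold higher, a log2 ratio of 2.28. This ratio ranked 7 of 11058 genes above the floor on both arrays, counted from the highest. Among 1023 genes with a mean log2 signal within 0.5 of that of Sfrp2, 2 had a ratio as high, Sfrp2 included, and the median of these genes was -0.10 (SD 0.41). Sfrp2 is bright on both arrays, so neither floor touches its value, but it rests on 1 probe set and has no second one to set beside it.

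**Figure D2:**
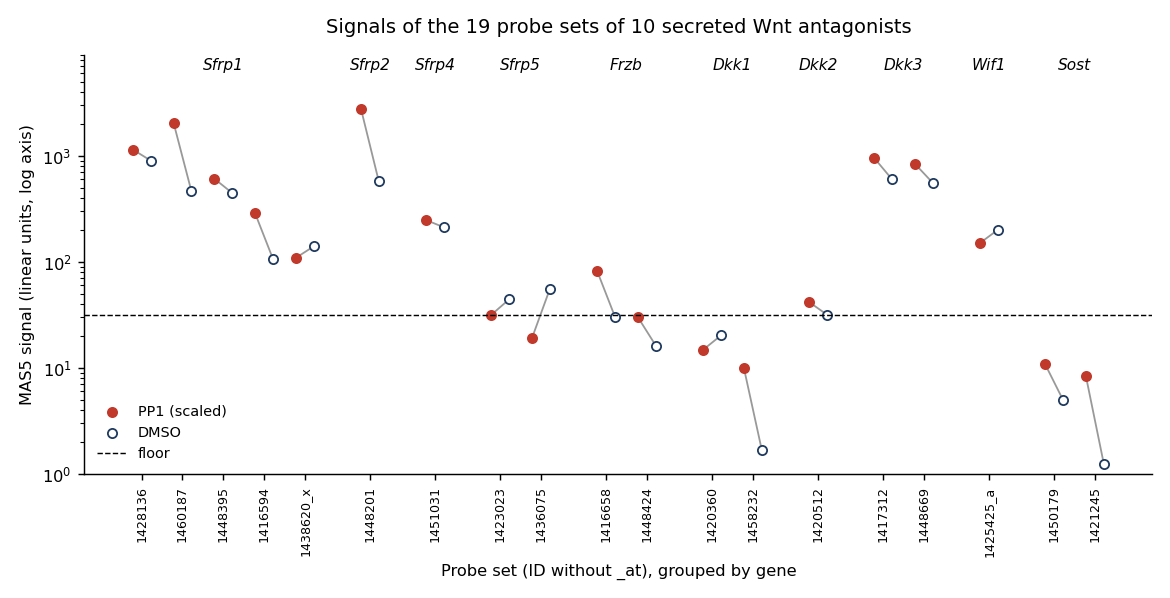
MAS5 signal (linear units on a log axis) of each of the 19 probe sets on the PP1 array after scaling (filled, left of each pair) and on the DMSO array (open, right), grouped by gene, with the floor of 31.7 dashed. Sfrp2 and the Sfrp1 probe set 1460187_at show the steepest differences among bright probe sets, both probe sets of Dkk1 and of Sost lie below the floor on both arrays, and heights are not comparable between probe sets.

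Sfrp1, whose loss in mice raises trabecular bone mass, was measured by 5 probe sets, and each passed the floor on both arrays. Probe set 1428136_at, which represents the gene by its mean log2 signal, gave 1149 on the PP1 array and 903.9 on the DMSO array, a log2 ratio of 0.35. Probe set 1460187_at gave 2058 on the PP1 array and 462.9 on the DMSO array, a log2 ratio of 2.15 or 4.45-fold higher. Probe set 1416594_at gave 289.0 on the PP1 array and 107.0 on the DMSO array, a log2 ratio of 1.43. So 2 of the 5 were more than 2-fold higher. Which probe set leads depends on the averaging: 1428136_at has the higher mean log2 signal (9.99, against 9.93 for 1460187_at), whereas 1460187_at has the higher mean linear signal (1261, against 1026 for 1428136_at). Probe set 1448395_at gave 610.6 on the PP1 array and 446.9 on the DMSO array (0.45). Probe set 1438620_x_at, whose ID marks probes that may bind other transcripts, gave 109.0 on the PP1 array and 139.9 on the DMSO array (-0.36). The direction was thus above 0 in 4 of 5 probe sets, with a median of 0.45, and the size ranged over 2.51 on the log2 scale.

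That spread is large for a gene on these arrays. Among 153 genes for which 5 probe sets passed the floor on both arrays, the median range of log2 ratios was 0.86, and 2 genes, Sfrp1 included, had a range as large as that of Sfrp1. Probe sets 1448395_at, 1416594_at and 1460187_at carry the same sequence record in the platform annotation, yet their log2 ratios ranged over 1.70. Among 288 such groups of 3 probe sets, the median range was 0.59 and 4 groups, that of Sfrp1 included, had a range as large. The transcript positions of the probe sets were not analysed here. As a sign of RNA quality, the 3′ over 5′ ratio of control probe sets changed by between -0.51 (Gapdh) and 0.79 (Tfrc) on the log2 scale, PP1 minus DMSO, in 4 control genes. Its part in the Sfrp1 values was not tested.

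**Figure D3:**
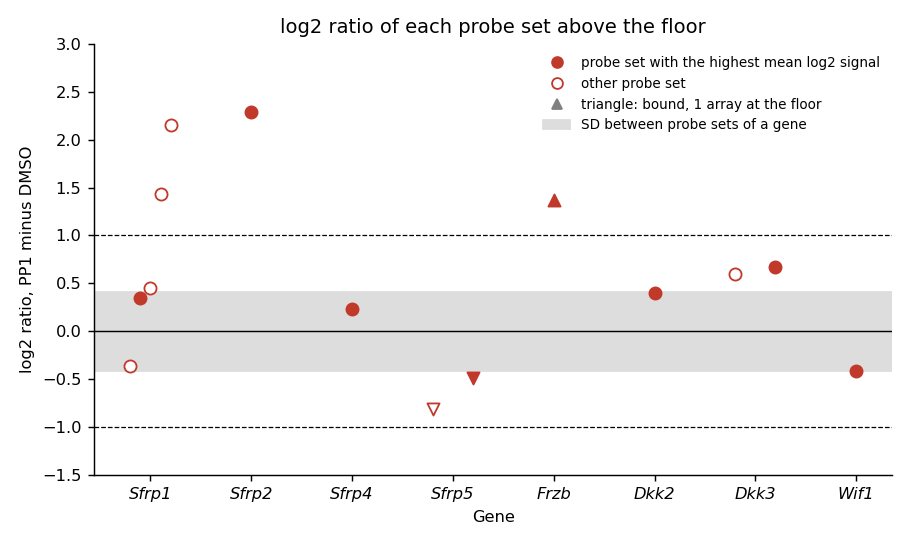
log2 ratio (PP1 minus DMSO, vertical axis) of the 14 probe sets above the floor on at least 1 array, by gene; filled symbols are the probe set of each gene whose mean log2 signal is highest, triangles are bounds, the grey band is the SD of 0.41 between probe sets of a gene, and dashed lines mark 2-fold. The 5 Sfrp1 probe sets run from -0.36 to 2.15, whereas the 2 of Dkk3 differ by 0.07.

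Counted by probe set, 4 of 14 above the floor were at least 2-fold higher, beside 4.33% of all such probe sets, and 0 were at least 2-fold lower, beside 1.48%. The 4 are 1 probe set of Sfrp2, 2 of Sfrp1 and 1 of Frzb, so they are not 4 separate genes. Ratios were above 0 in 10 of the 14 and below 0 in 4.

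Frzb, a Wnt-binding protein best known from cartilage and joints, had 81.9 on the PP1 array by probe set 1416658_at, against 30.2 on the DMSO array, which is just under the floor. It was therefore at least 2.58-fold higher, a log2 bound of 1.37. Its other probe set, 1448424_at, gave 30.0 on the PP1 array and 16.2 on the DMSO array, below the floor on both, so its difference was not read. Frzb thus rests on 1 dim probe set. Sfrp4, whose loss thins cortical bone in humans, had a signal of 248.3 on the PP1 array and 211.8 on the DMSO array (log2 ratio 0.23). That difference is smaller than the SD between probe sets.

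Sfrp5, a frizzled-related protein described in adipose tissue, was the dim member that went the other way. Probe set 1423023_at gave 31.6 on the PP1 array, just under the floor, and 44.4 on the DMSO array, which makes it at least 1.40-fold lower (log2 bound -0.48). Probe set 1436075_at gave 19.1 on the PP1 array and 55.7 on the DMSO array, at least 1.76-fold lower (log2 bound -0.81). Both probe sets lay on the same side, from DMSO signals less than 2 times the floor. Each passed the floor on the DMSO array only, so their shared side follows from the floor and is not agreement. Wif1, which binds Wnt ligands through its WIF domain, had 150.9 on the PP1 array and 201.4 on the DMSO array, 1.33-fold lower (log2 ratio -0.42). Among 2466 genes of similar signal the SD of the log2 ratio was 0.51, and 15.5% had a ratio as low as that of Wif1, so the value is inside the bulk of genes.

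Among the proteins that bind the co-receptors, the signals were low. Dkk2 had 41.9 on the PP1 array and 31.8 on the DMSO array, barely over the floor of 31.7 (log2 ratio 0.40). Dkk1, the classical LRP6-binding antagonist, gave 14.8 on the PP1 array and 20.2 on the DMSO array by 1 probe set, and 10.0 on the PP1 array and 1.69 on the DMSO array by the other. The osteocyte product Sost gave 10.8 and 8.29 on the PP1 array and 4.95 and 1.23 on the DMSO array by its 2 probe sets. A signal below the floor gives no fold here, and it does not show that the transcript is absent.

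Dkk3 had 957.2 on the PP1 array and 601.2 on the DMSO array by probe set 1417312_at, 1.59-fold higher (log2 ratio 0.67). Probe set 1448669_at gave 842.6 on the PP1 array and 556.2 on the DMSO array, 1.51-fold higher (0.60). The 2 probe sets differed by 0.07, where the median range over 2925 genes with 2 such probe sets was 0.37. Dkk3 is the bright member whose 2 probe sets agree within this spread, and 7.67% of 11058 genes had a ratio as high. Both probe sets carry the same sequence record in the platform annotation, so they are not independent of each other.

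The other Wnt pathway genes were taken from lists drawn up by role, with 57 distinct genes measured. Of these, 1 (1.75%) was at least 2-fold higher and 3 (5.26%) were at least 2-fold lower, beside 2.97% and 1.55% of all measured genes. Of 19 Wnt ligands 8 were measured, with 0 at least 2-fold higher and 1 at least 2-fold lower. That gene is Wnt4, with 32.5 on the PP1 array and 81.7 on the DMSO array (log2 ratio -1.33, or -0.43 by its other probe set). Its PP1 signal was barely over the floor of 31.7, which limits the ratio. Wnt5a stood at 0.14, but 1 of its 3 probe sets gave 1.29. Of 20 measured receptors and co-receptors, 0 were at least 2-fold away in either direction, with a median log2 ratio of 0.06. This count holds for the brightest probe set of each gene. By their other probe set, Fzd1 (0.16) gave 1.12 and Fzd4 (-0.14) gave 1.11. The targets of the Dickkopf proteins and sclerostin were among the 20 receptors: Lrp6 stood at 0.35 and Lrp5 at 0.23. Kremen1, a Dickkopf receptor, stood at -0.36 with its 3 probe sets from -0.36 to 0.02. The 14 measured intracellular genes also held 0 that were 2-fold away (median 0.11), with beta-catenin (Ctnnb1) at 0.12. Axin1 stood at 0.10, but its other probe set gave 1.19.

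The list of Wnt target, feedback and R-spondin genes had 11 measured genes, of which 1 was at least 2-fold higher and 2 at least 2-fold lower, with a median of 0.07. Axin2, a direct target of beta-catenin signalling, had 100.7 on the PP1 array and 107.2 on the DMSO array (log2 ratio -0.09). Lef1 was below the floor on both arrays and Tcf7 was not analysed here. Ccn4 stood at -2.13, with 622.2 on the PP1 array and 2719 on the DMSO array, and its other probe set gave -2.66. Myc stood at -1.02. Rspo2, a secreted enhancer of Wnt signalling, had 1150 on the PP1 array and 484.7 on the DMSO array (log2 ratio 1.25), but -0.86 by its other probe set. Of 6 measured genes in the list of other extracellular modulators, which shares the R-spondins, Rspo2 was the 1 at least 2-fold higher and 0 were at least 2-fold lower (median 0.36). Igfbp4, an IGF-binding protein that also inhibits Wnt signalling, stood at 0.62, the lowest of its 6 probe sets, which ran up to 2.66. Sostdc1, the relative of sclerostin, had 45.2 on the PP1 array and was below the floor on the DMSO array (bound 0.51).

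**Figure D4:**
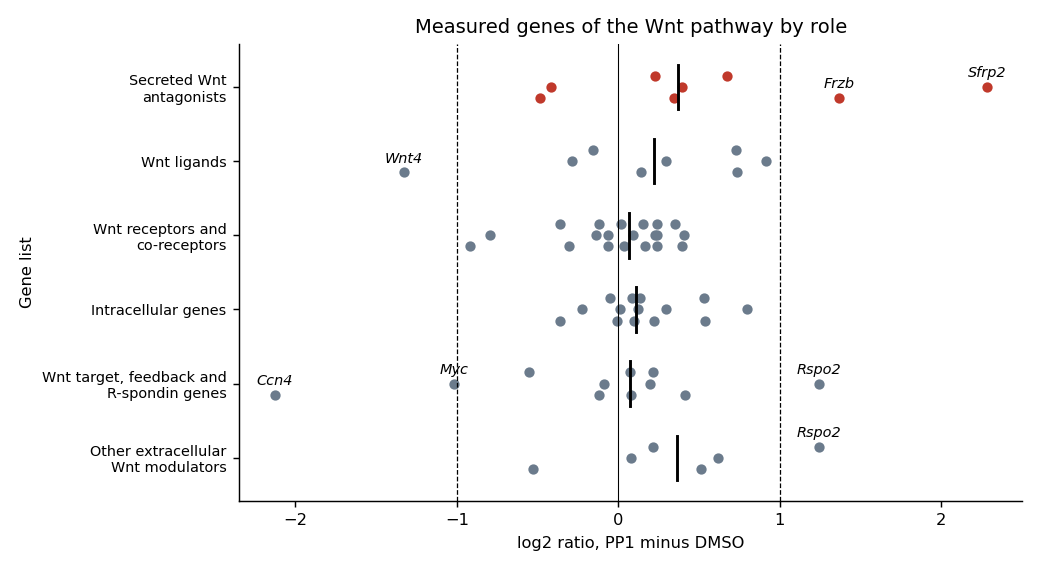
log2 ratio (PP1 minus DMSO, horizontal axis) of each measured gene, 1 point per gene spread vertically for clarity, by list; black bars are list medians, dashed lines mark 2-fold and genes beyond them are named (Rspo2 is in 2 lists). Medians run from 0.06 for receptors and co-receptors to 0.37 for the secreted antagonists, and all receptors and intracellular genes measured lie within the dashed lines.

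Markers of cell types also differed between the arrays, in both directions. With 1 ratio per gene, no likeness between markers and antagonists could be computed. Over all measured genes, 51% were above 0, 2.97% were at least 2-fold higher and 1.55% at least 2-fold lower. Of 8 measured fibroblast and periosteum markers, 7 were above 0 and 3 at least 2-fold higher, namely Osr1 (2.22), Scara5 (1.66) and Twist1 (1.54). Their summed signal was 13649 on the PP1 array and 9196 on the DMSO array. The 5 measured adipocyte markers were all above 0, and 1, Lpl (1.32), was at least 2-fold higher. Their summed signal was 7659 on the PP1 array and 4191 on the DMSO array, of which Lpl had 4022 and 1614. The 6 smooth muscle and pericyte markers were all below 0, with 3 at least 2-fold lower and a summed signal of 8356 on the PP1 array and 11275 on the DMSO array. Of 5 measured chondrocyte markers, relevant to Frzb, 4 were below 0 and 1, Acan (-1.18), was at least 2-fold lower. The summed signal of the 5 was 5186 on the PP1 array and 5987 on the DMSO array. The 8 macrophage markers had 6 above 0 and 1, Mrc1 (1.11), at least 2-fold higher. Their summed signal was 16525 on the PP1 array and 13794 on the DMSO array. The 6 measured osteoblast markers had 3 above 0 and 3 below. The 1 at least 2-fold lower was bone sialoprotein (Ibsp), with 37.7 on the PP1 array and 159.1 on the DMSO array. Skeletal muscle markers had 4 of 5 measured genes above 0 and 2 at least 2-fold higher, Des (1.43) and Myog (a bound of 1.37), with a median of 0.64 and summed signals of 956.8 on the PP1 array and 850.2 on the DMSO array. Of the 5 endothelial markers, Pecam1 and Emcn were below the floor on both arrays, and the 3 measured were Tek (0.77), Cdh5 (a bound of 0.39) and Kdr (-0.01), with summed signals of 131.2 on the PP1 array and 90.2 on the DMSO array. Summed signals add probe sets whose heights are not comparable. They are led by the brightest genes, such as Lyz1 and Lyz2 among the macrophage markers, so they do not give amounts of a cell type. The part of these other cells in the Sfrp2, Frzb and Dkk3 values was not tested.

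Across settings, Sfrp2 was more than 2-fold higher in 12 of 12 alternatives, with log2 ratios from 1.44 to 2.34. With 1 bright probe set, it could not change under other floors or other choices of probe set, which all gave 2.28. Only the alternatives of scaling could move Sfrp2. Frzb has 1 probe set above the floor and kept 1.37 under each choice of probe set. Frzb was at least 2-fold higher in 9 of the 11 alternatives that measured it, and the exceptions were the arrays as deposited (0.69) and scaling to the bacterial hybridization controls (0.60). In those same 2 settings Sfrp1, Sfrp4, Dkk2 and Dkk3 turned below 0, with Dkk3 at -0.08 and -0.17, so their direction holds only relative to the bulk of genes. Wif1 and Sfrp5 were below 0 in every alternative that measured them. Sfrp5 passed the floor on the DMSO array only, so a PP1 signal raised to the floor fixes its ratio below 0. For Sfrp5 these results are therefore no sign of stability. With no floor its ratio was -0.49. Taking the probe set brightest on the PP1 array, or the one with the highest mean linear signal, gave 2.15 for Sfrp1 in place of 0.35. This made 3 antagonists at least 2-fold higher, beside 404 of 12106 and 369 of 12121 measured genes in these settings. The first choice selects on the PP1 signal itself, and a linear mean gives more weight to the larger signal of a pair. Neither is thus independent support for the higher Sfrp1 ratio. At a threshold of 3-fold only Sfrp2 was called among the 8, beside 0.495% of all measured genes.

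**Figure D5:**
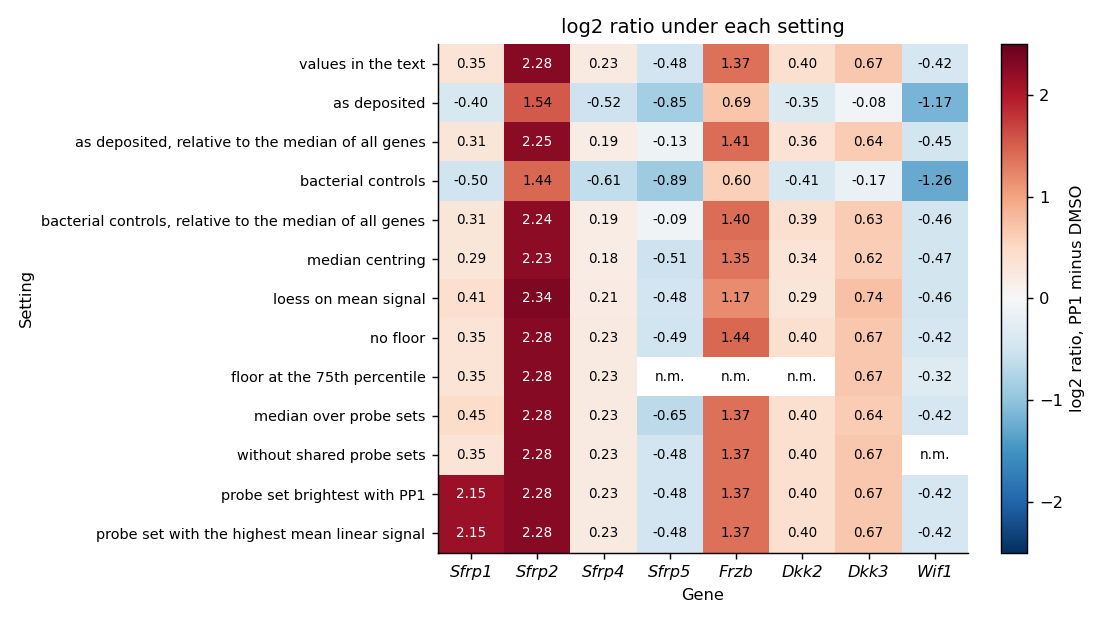
log2 ratio (PP1 minus DMSO, printed and by colour) of the 8 measured antagonists (columns) under the values in the text and 12 alternatives (lines); n.m. means not measured in that setting. Sfrp2 keeps values from 1.44 up, Wif1 and Sfrp5 stay below 0 where measured, and Sfrp1 reaches 2.15 with the probe set brightest with PP1 or with the highest mean linear signal.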

How the data were processed

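Expression was measured on 2 Affymetrix arrays, 1 of PP1-treated and 1 of DMSO-treated osteoblasts. The deposited values are MAS5 intensities, a linear signal for each probe set, per the submitters' processing notes, with version, target scaling, genome build and detection calls not given in the sources used. Per the labels' protocols, RNA was extracted with Trizol and labelled as biotinylated cRNA. Depth does not apply to arrays, and their number limits the precision.

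Of 45101 probe sets, 64 controls were left out. Symbols came from the platform annotation, updated by gene ID (34741 of 34945 matched) through a RefSeq table of GRCm38.p6 used for names and promoter sequences. The PP1 array was scaled by 1.68 to the 2% trimmed mean of the DMSO array, floored at 31.7 and log2 transformed. A gene takes its brightest probe set, by the mean of both log2 signals before the floor. No test across arrays was possible.

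The members, gene lists and alternatives were chosen with earlier results of these data known. All 10 members are named, with every probe set. Of the pathway lists, genes at least 2-fold away and Lrp5, Lrp6, Kremen1, Ctnnb1, Axin2, Lef1 and Tcf7 are named, and any further name was picked with its value known. Alternatives covered scaling, the floor, the probe set of a gene and the fold threshold. The steps were tested on simulated data. Python 3.11.15, pandas 2.3.3, numpy 2.4.6 and statsmodels 0.14.6 (loess, span 0.3) were used.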

Additional observations from a re-analysis of the deposited data

How the results depend on the processing

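No paired analysis was possible because each group is 1 array, and for the same reason no array could be left out. The count of antagonists at least 2-fold higher, 2 in the report, was 1 (Sfrp2) for the arrays as deposited, 1 (Sfrp2) when scaled to the bacterial controls, 1 (Sfrp2) with a floor at the 75th percentile, which left 5 of the genes measured, and 1 (Sfrp2) at a threshold of 3-fold. The count at least 2-fold lower, 0 in the report, was 1 as deposited (Wif1, -1.17) and 1 with the bacterial controls (Wif1, -1.26). The median of the antagonists, 0.37 in the report, was -0.38 as deposited and -0.45 with the bacterial controls. In these 2 settings the median of all genes had shifted by -0.71 and -0.80, and relative to it the antagonists' median was 0.34 and 0.35 and the counts were again 2 and 0. Among all measured genes, at least 2-fold higher and lower were 360 and 188 in the report, 50 and 2877 as deposited, 35 and 3774 with the bacterial controls, 606 and 314 with no floor, and 111 and 84 with a floor at the 75th percentile. The antagonists at least 2-fold away in the report, Sfrp2 and Frzb, kept their sign in every alternative that measured them. For Sfrp2 only the alternatives of scaling could have changed it. Wherever Frzb passed the floor on the PP1 array only, its sign was fixed above 0. The choices of the probe set brightest on the PP1 array and of the one with the highest mean linear signal were added after seeing the data. Leaving out all probe sets whose ID ends in _s_at, _x_at or _a_at left Wif1 (1425425_a_at) with no value. This rule goes by the ID alone, and binding of the Wif1 probes to other genes was not examined. The dim genes Frzb, Dkk2 and Sfrp5 are limited by their closeness to the floor.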
